A study of Mus musculus with 6 samples.

Results

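The cytosolic ribosomal protein genes were followed through the single cells of cultured mouse tracheal epithelium. Members were the rows of the count table whose symbol is Rpl or Rps with a number, or Rplp0, Rplp1, Rplp2 or Rpsa, without pseudogenes and without the Rps6k kinases. This rule used no measured value and gave 78 of 20483 genes, 47 of the large and 31 of the small subunit. The cells came from 6 C57BL/6 mice, 12 weeks old, of 2 genotypes: 3 WT mice, and 3 mice labelled DNAAF5 Mutant that are homozygous for the MIS missense allele of Dnaaf5, a gene for a cytoplasmic factor that assembles the dynein motors of cilia. Primary airway cells of the trachea of every mouse were grown and differentiated at air-liquid interface (ALI), with no other agent named, and were taken through droplet scRNA-Seq (10x Genomics 3′ v2). Each mouse is 1 library, and cells of a mouse are not replicates, so genotypes were compared over mice. The allele is in the germ line and is therefore carried by every cell type, and cultures hold only what grows from the isolated airway cells.

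Ribosomal proteins coat the RNA core of the ribosome, and each ribosome carries a small 40S subunit, which reads the mRNA, and a large 60S subunit, which joins the amino acids. Their mRNAs begin with a 5′ terminal oligopyrimidine (TOP) tract, through which growth signals control their translation together. In the airway, basal cells divide and renew the epithelium, secretory cells derive from them, and multiciliated cells are post-mitotic and devote much of their transcription to cilia.

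The 5′ ends of 9 members the results below turn on are shown, because the TOP tract is the sequence feature these genes are known to share. Each window runs from 30 bases before to 15 bases from the RefSeq transcription start (GRCm38.p6). Capitals mark the longest run of C or T that overlaps the 20 bases around the start. Rps6 (chr4:86857353-86857397, minus strand), Rpl11 (chr4:136053379-136053423, minus) and Rpl22 (chr4:152325696-152325740, plus) lie on chromosome 4. Rpl41 (chr10:128549154-128549198, minus), Rpl39 (chrX:37085208-37085252, minus), Rps28 (chr17:33824548-33824592, minus), Rpl38 (chr11:114668550-114668594, plus), Rps27l (chr9:66946056-66946100, plus) and Rps27 (chr3:90213634-90213678, minus) are among the members with the shortest coding sequence.
Rps6: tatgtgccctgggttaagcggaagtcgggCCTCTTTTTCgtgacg
Rpl11: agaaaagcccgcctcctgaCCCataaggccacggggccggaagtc
Rpl22: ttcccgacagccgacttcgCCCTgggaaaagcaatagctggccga
Rpl41: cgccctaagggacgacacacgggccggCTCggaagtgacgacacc
Rpl39: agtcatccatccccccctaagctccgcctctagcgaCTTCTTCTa
Rps28: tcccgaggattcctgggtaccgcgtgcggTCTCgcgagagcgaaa
Rpl38: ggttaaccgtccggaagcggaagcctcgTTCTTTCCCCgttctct
Rps27l: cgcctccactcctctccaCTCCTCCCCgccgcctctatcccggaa
Rps27: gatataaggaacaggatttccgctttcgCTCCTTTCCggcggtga

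A start window was found for 58 of the 78 members. The longest C or T run around the start had a median of 6.5 bases in the members and 4 bases over the start windows of 27025 transcription starts of all genes. A run of at least 8 bases occurred in 26 members (44.8%), against 13.5% of all starts. The first transcribed base was C in 32.8% of members and in 16.2% of all starts. Of motifs searched on both strands over 300 bases, CCGGAAG, the core bound by ETS factors, was in 39.7% of members and 9.12% of all, and ATGGCGG, the core of the YY1 site, in 15.5% and 4.19%. TATAAA was in 8.62% of members and 14.2% of all, and CACGTG, an E-box, in 8.62% and 7.24%. These are matches of letters and describe the windows only; 10 members have several annotated starts, of which the first was used.

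The count table holds 23871 cells and 749039951 UMIs, unique molecular identifiers that each stand for 1 captured transcript. Mice contributed 2673 to 6710 cells and 100961835 to 153326568 UMIs, with a median of 21328 to 35383 UMIs per cell and a median mitochondrial share of 9.76% to 11.4%. Dnaaf5 itself was at 9.87 to 13.6 CPM (counts per 1000000 UMIs) in the WT libraries and at 15.2 to 21.2 CPM in the mutant libraries over all cells, and in multiciliated cells at 38.2 to 49.4 and 49.3 to 54.9 CPM; a missense allele keeps its transcript, so these levels do not check the labels. Cell names are the authors' clusters. Their names fitted the markers in most cases: Krt5, a basal keratin, was highest in Basal4 (1202 CPM), Scgb3a2, a secretoglobin of secretory cells, in Secretory1 (13754 CPM), and Foxj1, the regulator of motile ciliogenesis, in Multiciliated2 (717 CPM). Against its label, Basal8 had the highest Cyp2f2 (9786 CPM), a gene of club cells. Ptprc, which all leukocytes express, did not exceed 0.406 CPM in any cluster, and Cd3e, of T cells, not 0.0451 CPM. Of the other immune markers, Cd68 reached 44.8 CPM in Secretory2 and Lyz2, a lysozyme, 2949 CPM in Basal7. A list of 4 fibroblast markers summed to 44.4 CPM in WT3, against 0.130 to 0.339 CPM in the other mice. Each of these markers was highest in Basal1.

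Ribosomal protein transcripts made up 12.1% of all UMIs. The median cell held 3280 of them, 11.3% of its UMIs, and single cells ranged from 0.806% to 46.2%. Of the 78 members, 77 had a mean of at least 20 CPM over mice, and each of these was detected in at least 99.3% of cells. Their levels spanned 6.25-fold around a median of 1572 CPM. A UMI counts a molecule whatever its length, but capture differs between transcripts, so the order of levels holds for this assay.

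Large-subunit members supplied the extremes. Rplp1, an acidic protein of the stalk that recruits elongation factors, had the highest mean. It was at 3555, 3461 and 3366 CPM in WT1, WT2 and WT3 and at 3535, 3308 and 3094 CPM in mutants MT1301, MT1306 and MT1383. Rpl41, the shortest member, followed at 3343 ± 378 CPM (SD, n = 6), and the ranges of these genes over the mice overlapped. Rpl23, Rpl13 and Rpl19, proteins of the 60S body, came next at 2868, 2835 and 2384 CPM. The lowest were Rpl31, near the tunnel exit, at 542 ± 37.0 CPM, then Rpl4, which lines the exit tunnel, at 592 ± 55.6, Rpl35 at 661 ± 80.9, Rpl7a at 676 ± 51.2 and Rpl22 at 691 ± 92.1 CPM. Together 40S members took 41.4% and 60S members 58.6% of the ribosomal protein UMIs. Fixed members between the extremes included Rplp0, the base of the stalk (2285 CPM), Rpsa (1671 CPM), Rplp2, the partner of Rplp1 (1569 CPM), Rps25 (1008 CPM) and Rpl10a (877 CPM). Rps19, a protein of the 40S head that is often mutated in Diamond-Blackfan anaemia, was at 1697 CPM. Rpl5 (916 CPM) and Rpl11 (1167 CPM), which bind the 5S RNA and can inhibit Mdm2, were below the median.

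Of the paralog pairs, Rpl3 and Rpl3l were very unequal. Rpl3, at the peptidyl transferase centre, was at 1181 CPM, and Rpl3l, its paralog of striated muscle, at 0.0233 CPM with 19 UMIs in all, 8 of them in Multiciliated3. Rps4x was at 1352 CPM; Rps4l and the germ line paralogs Rpl39l and Rpl10l of Rpl39 (1605 CPM) and Rpl10 (1487 CPM) were not analysed here. Rps27l, a target of p53, was well expressed at 742 CPM beside 1537 CPM for Rps27. Related rows outside the rule stand beside Rps27 (Rps27rt, 77.5 CPM), Rpl9 (Rpl9-ps6, 48.9 CPM), Rpl10 (Rpl10-ps3, 57.3 CPM) and Rpl36a (Rpl36al, 647 CPM, and Rpl36a-ps1, 10.5 CPM). Reads may be misplaced between such rows, so these members' values are uncertain by an amount that was not measured.

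The share of UMIs differed more between clusters than between mice of a cluster. It was highest in basal clusters and lowest in Multiciliated3, the largest multiciliated cluster, and the means over mice ran from 19.4% to 4.47%. Clusters were made by the authors from these same cells, so their differences are described without a test. Basal4 was at 19.4% ± 1.50 (SD, n = 4 mice with at least 20 cells) and Basal3 at 18.6% ± 0.828 (n = 6). The order of these neighbours is not settled, since Basal4 was higher in 2 of 4 mice. Basal6, whose cells had the highest Mki67 and Top2a, was at 16.8% ± 0.550 and below Basal3 in 6 of 6 mice. Basal2 followed at 15.4% ± 0.690, below Basal6 in 6 of 6 mice. Basal5 (14.7%), Basal1 (14.1%), Basal7 (12.5%), Secretory2 (12.2%), Basal8 (12.0%) and Multiciliated2 (11.3%) overlapped with their neighbours in the order. Basal1 spanned 11.8% to 18.4%, and its highest value belonged to WT2.

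Below them the order was the same in each mouse with few exceptions. Secretory1 was at 9.47% ± 0.452 and below Secretory2 in 6 of 6 mice, by 2.69 percentage points on average. Multiciliated1 was at 7.94% ± 0.412, below Secretory1 and below Multiciliated2 in 6 of 6 mice. Multiciliated4 was at 7.76% ± 0.463 (n = 5) and did not differ from Multiciliated1 beyond the spread, being lower in 3 of 5 mice. Its 146 cells had a median mitochondrial share of 1.29%, against 8.51% in Multiciliated3 and 10.9% in Multiciliated1. Multiciliated3 was at 4.47% ± 0.108, and its 6 mice spanned only 4.34% to 4.62%. The Neuroendocrine cluster reached 20 cells in MT1383 alone (10.1%), and 28 Ionocyte cells pooled over mice gave 7.35%. The median number of ribosomal protein UMIs per cell went from 5723 in Basal4 to 1107 in Multiciliated3 and 821 in Multiciliated4, at median depths of 30257, 26360 and 10197 UMIs. Taking mitochondrially encoded transcripts out of the total left Basal4 first (21.7%) and Multiciliated3 last (4.89%) and moved no cluster by more than 2 ranks.

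**Figure D1:**
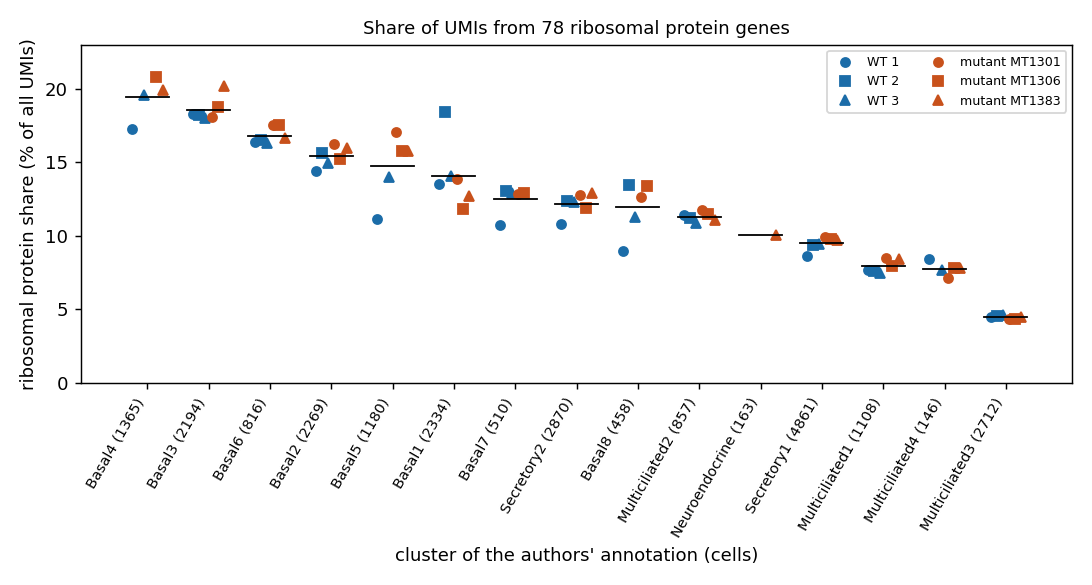
Share of all UMIs held by the 78 ribosomal protein genes (vertical axis, percent) in each cluster (horizontal axis, cells in brackets); each point is 1 mouse with at least 20 cells in that cluster, blue for WT and orange for mutant, and black lines are means over mice. Basal4 and Basal3 lie at 17.3% to 20.8%, and all mice of Multiciliated3 at 4.34% to 4.62%. Where both genotypes are shown, the mutant mean is the lower in Basal1, Multiciliated3 and Multiciliated4 and the higher in the other clusters.

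Nearly all members took part in this order. In CPM, 75 of the 77 expressed members were lowest in Multiciliated3, and 47 were highest in Basal4 and 26 in Basal3. The fold between the highest and the lowest cluster had a median of 4.72 and ran from 2.36 for Rpl41 to 8.12 for Rps19. Rps19 was at 2823, 2827 and 2767 CPM in Basal3 of WT1, WT2 and WT3 and at 2724, 2815 and 3133 CPM in that of MT1301, MT1306 and MT1383. In Multiciliated3 it was at 356, 369 and 377 CPM in the WT mice and at 336, 325 and 342 CPM in the mutant mice. The ranges of these clusters lay far apart for Rps19, and 76 of 77 members were lower in Multiciliated3 than in Basal3 in 6 of 6 mice, by a median of 4.46-fold. The exception was Rpl41, at 3131 to 4305 CPM in Multiciliated3 and 3042 to 3994 CPM in Basal3. Over the 15 clusters of at least 100 cells, which come from the same libraries, Pearson's r between a member's log2 CPM and the share was above 0.9 for 70 members. Each member is part of the share, so a high r is partly built in; Rpl41 (r = -0.165) and Rps27l (r = 0.194) departed from it most.

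Other genes of translation were placed beside the members by lists of known function. Rack1, a scaffold of the 40S head that the symbol rule leaves out, followed the share most closely of 6012 other genes with at least 20 CPM (r = 0.984 over 15 clusters). Gm2000 came next, and no function is given for it here. Then there were Eef1g and Eef1b2, subunits of an elongation factor, and Rps3a1 and Fau, which encode 40S proteins under other symbols. Naca, which binds nascent chains, and Eif3e, Eif3k and Eif3h, subunits of an initiation factor, were also among them. All had r of at least 0.955. Most of these have TOP mRNAs or are ribosomal proteins themselves. The median r of the 6012 genes was -0.018, and 25 exceeded 0.9. In the opposite direction stood Gde1 (r = -0.978), Ppp6r1, E2f5, Cyb561 and Myh14, all highest in Multiciliated3. The 17 translation elongation and TOP genes had a median r of 0.860, with 15 of 16 measurable ones above 0. Of 32 ribosome biogenesis genes, which serve the nucleolus, 31 were above 0, at a median of 0.689. Mitochondrial ribosomal proteins did not follow: 18 of 74 were above 0, with a median of -0.257, and their summed level was highest in Multiciliated4 (12146 CPM) and lowest in Basal4 (5319 CPM). Of the other ribosomal symbols outside the rule, Rpl22l1 (r = 0.892) and Rpl36al (0.794) followed the share and Rpl7l1 (0.203) less so.

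The make-up of the ribosomal protein UMIs, each member's percentage of their sum, varied less than their amount. The ratio of the highest to the lowest cluster had a median of 1.45 over the members. It was largest for Rpl41 (4.70), Rps27l (3.93), Rps19 (2.33) and Rps6 (2.15), the last of them the 40S protein phosphorylated on growth signals.

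Rpl41 stood out in multiciliated cells. It made up 7.44%, 6.90% and 7.84% of the ribosomal protein UMIs of Multiciliated3 in WT1, WT2 and WT3 and 8.29%, 9.87% and 8.61% in MT1301, MT1306 and MT1383. In Basal3 it made up 1.67%, 1.68% and 1.86% in the WT mice and 1.84%, 2.13% and 1.97% in the mutant mice. No mouse overlapped between these clusters. Multiciliated4 was higher still at 8.73% ± 1.13 (n = 5), while Multiciliated1 (4.22% ± 0.495), Multiciliated2 (3.68% ± 0.478) and Secretory1 (3.08% ± 0.265) lay between. As given above, its CPM was much the same in Basal3 and Multiciliated3, where nearly all other members were lower.

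Rps27l, like Rpl41, weighed more in multiciliated clusters. It made up 1.06%, 1.06% and 1.23% of Multiciliated2 in the WT mice and 1.19%, 1.22% and 1.38% in the mutant mice, against 0.283% to 0.350% in Basal4. Its partner Rps27 was also highest in Multiciliated4 (1.98% ± 0.230, n = 5), Multiciliated3 (1.74% ± 0.287) and Multiciliated1 (1.49% ± 0.225), but in Multiciliated2 it was at 1.02% ± 0.152, next to its lowest cluster, Basal6 (0.957% ± 0.157). Rplp2 was particular in its cluster: in Multiciliated2 it took 2.38%, 1.97%, 2.13%, 2.13%, 2.46% and 2.20% in WT1 to MT1383, and the mean of every other cluster was between 1.17% and 1.36%. Its partner in the stalk, Rplp1, was highest in Multiciliated4. Rpl10, which completes the 60S subunit, was lowest in the same Multiciliated2 (0.808% ± 0.0437), where the 6 mice spanned 0.750% to 0.873%. Multiciliated2 also had the highest Foxj1 and the highest Cdk1 (286 CPM), and whether its makeup goes with these was not tested.

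**Figure D2:**
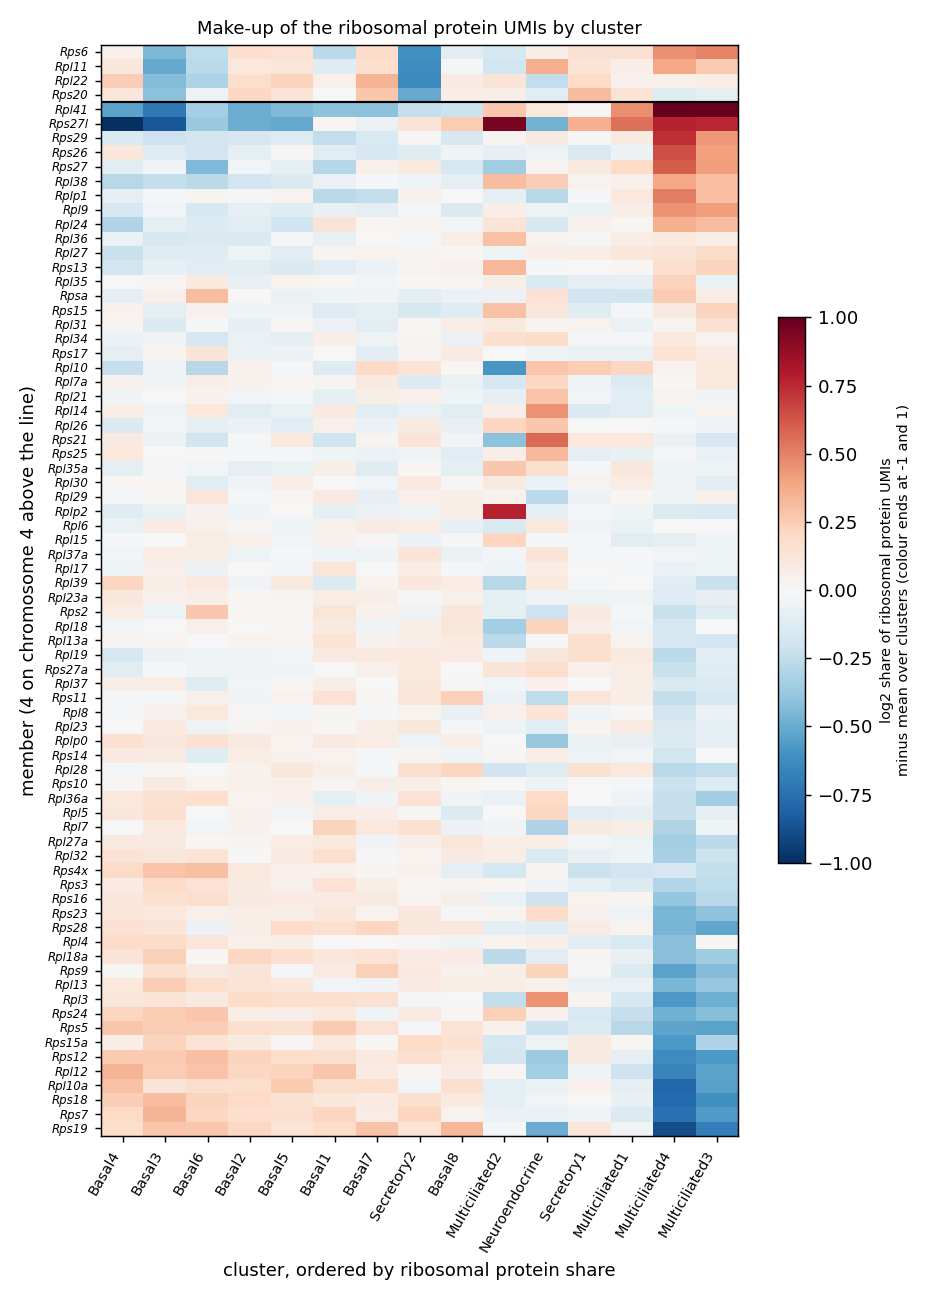
Each member's share of the ribosomal protein UMIs in each cluster (columns, ordered by the total share), as log2 difference from that member's mean over clusters (colour, red higher, blue lower; scale ends at -1 and 1), for 76 expressed members with 4 of those on chromosome 4 above the line. Rpl41 and Rps27l are red in multiciliated columns, Rplp2 is red in Multiciliated2 alone, and the chromosome 4 members are blue together in Basal3 and Secretory2.

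The 5 members on chromosome 4 differed together between clusters of the same cell type. In GENCODE M21 on GRCm38 the 4 described here lie far apart: Rps20 at chr4:3831334-3835665, Rps6 at chr4:86854660-86857412, Rpl11 at chr4:136028265-136053428 and Rpl22 at chr4:152325742-152334071. Rps20 is a protein of the 40S head, and Rpl22 is a 60S protein that is lost in some tumours. Together the 5 made up 4.30%, 4.40% and 4.27% of the ribosomal protein UMIs in Basal3 of WT1, WT2 and WT3 and 4.39%, 4.11% and 4.28% in MT1301, MT1306 and MT1383. In Basal2 they made up 6.38%, 6.73%, 6.80%, 5.94%, 6.39% and 6.80% in the same order of mice. In Secretory2 they took 3.93%, 3.99%, 3.99%, 3.74%, 3.84% and 3.78%, and in Secretory1 6.56%, 6.72%, 6.77%, 6.33%, 6.48% and 6.79%. The clusters of each pair did not overlap in any mouse. These pairs were chosen after the data were seen.

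Rps20, Rps6, Rpl11 and Rpl22 were the lowest 4 of the 77 members in both pairs. Their log2 share of the ribosomal protein UMIs differed by -0.61 between Basal3 and Basal2 for each of them, and by -0.84 to -0.75 between Secretory2 and Secretory1. Among members of other chromosomes the lowest were Rps27l (-0.35) in the first pair and Rpl41 (-0.24) in the second. Rps6, for example, took 0.570% ± 0.0287 in Basal3, 0.872% ± 0.0566 in Basal2, 0.510% ± 0.0196 in Secretory2 and 0.865% ± 0.0330 in Secretory1 (n = 6 each). In CPM the 5 ran opposite to the rest of the members: 72 of 77 were higher in Secretory2 than in Secretory1 in 6 of 6 mice, and the remaining 5, those of chromosome 4, were lower in 6 of 6.

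Genes of chromosome 4 that encode no ribosomal protein were lower in the same clusters. The median log2 difference in CPM of 259 such genes was -0.61 between Basal3 and Basal2 (mice -0.68 to -0.49) and -0.65 between Secretory2 and Secretory1 (mice -0.69 to -0.63). The medians of the other chromosomes lay between -0.02 and 0.06 in the first pair and between 0.12 and 0.18 in the second. In CPM, the scale of these values, the 5 members had medians of -0.33 and -0.41, and the members of other chromosomes had medians of 0.23 to 0.38 and 0.35 to 0.50; the gap between the 5 members and the 259 genes was not tested. When the 259 genes were divided by position into 5 consecutive stretches of 51 or 52 genes, the stretches ranged from -0.64 to -0.55 and from -0.73 to -0.60. What sets this difference was not tested.

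**Figure D3:**
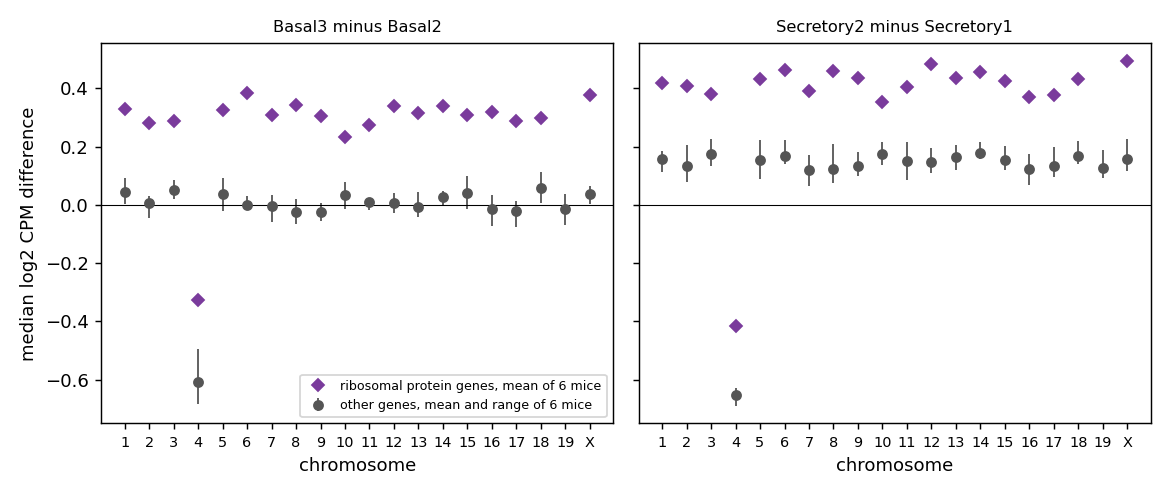
Median log2 difference in CPM per chromosome (horizontal axis) between Basal3 and Basal2 and between Secretory2 and Secretory1, for other genes and for ribosomal protein genes; points are means over 6 mice, and bars on the other genes are the range over mice. Chromosome 4 alone lies at -0.61 and -0.65 for other genes, and its 5 members lie below the members of every other chromosome.

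The difference was also seen between cells of 1 cluster. Over all cells the chromosome 4 members' percentage of a cell's ribosomal protein UMIs had a lower and an upper mode, and 6698 cells (28.1%) were under 5%, with 1604 cells (6.72%) close to that limit, between 4.5% and 5.5%. The class is therefore a range of a score and not a cell type. Under the limit were 77.7% of Basal3 cells, 91.3% of Secretory2, 63.5% of Basal6, 40.6% of Basal1, 28.6% of Multiciliated2 and 27.5% of Basal8, but 2.29% of Basal2 and 2.49% of Secretory1. With each cell thinned to 1000 ribosomal protein UMIs these shares were 77.1%, 89.3%, 59.6%, 41.0%, 29.5%, 24.8%, 3.68% and 4.09%; 1922 shallower cells were left out, 1418 of them mutant and 504 WT. Between cells under and over the limit within Basal1, Basal3, Basal6 and Multiciliated2, the other chromosome 4 genes differed by a median of -0.80, -0.72, -0.72 and -0.76 on the log2 scale, and the medians of other chromosomes lay between -0.26 and 0.28.

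Such cells occurred in every mouse and did not separate the genotypes. They were 17.3%, 45.0% and 28.5% of the cells of WT1, WT2 and WT3 and 43.5%, 35.1% and 8.12% of those of MT1301, MT1306 and MT1383 (two-sided exact permutation test over 3 mice against 3, p = 0.9, where 0.1 is the smallest possible). The spread between mice of a genotype was wide: within Basal1 they were 20.6% of cells in WT1 and 59.8% in WT2, and 55.3% in MT1301 and 12.7% in MT1383. Basal1 had the highest ribosomal protein share in WT2 (18.4%), the mouse with most of these cells there. The other mice did not follow this order. MT1301, with 55.3% of such cells, had a share of 13.8%, and MT1306, with 46.5%, had the lowest share (11.8%).

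**Figure D4:**
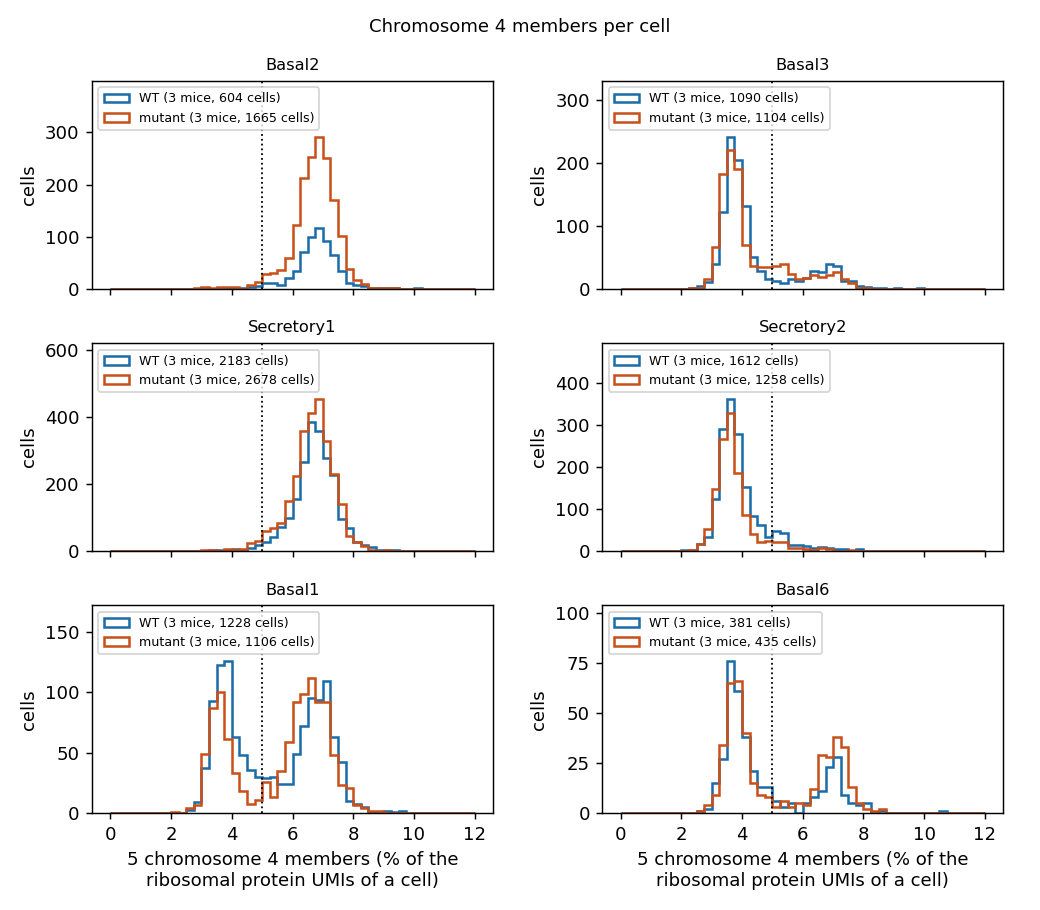
Histograms over cells of the percentage of ribosomal protein UMIs that come from the 5 chromosome 4 members (horizontal axis) in 6 clusters, for WT (blue) and mutant (orange) cells; the vertical axis counts cells and the dotted line marks 5%. Basal3 and Secretory2 lie mostly left of the line, Basal2 and Secretory1 right of it, and Basal1 and Basal6 on both sides in both genotypes.

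The genotype comparison asks whether the Dnaaf5 genotype goes with a difference in ribosomal protein expression. Over all cells the share was 12.7%, 12.5% and 12.4% in WT1, WT2 and WT3 and 12.4%, 11.8% and 11.1% in MT1301, MT1306 and MT1383. The mutant mean was 0.760 percentage points lower (11.8% ± 0.682 against 12.5% ± 0.149, SD, n = 3), and the groups overlapped slightly (exact permutation test, p = 0.2, adjusted p = 0.7 over 4 comparisons). Multiciliated cells held 7.06%, 8.02% and 6.63% in the WT mice and 7.30%, 5.93% and 7.16% in the mutant mice (difference -0.441, exact p = 0.6). Secretory cells held 9.57%, 10.6% and 10.3% against 11.03%, 10.9% and 10.00% (0.455, exact p = 0.4). Basal cells held 15.3%, 17.2% and 15.7% against 15.6%, 15.8% and 15.4% (-0.491, exact p = 0.7). Adjusted p was 0.7 for each, and with 3 mice against 3 no share could have reached 0.05.

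These differences depended on which clusters a mouse's cells fell into. With every mouse given the same proportions of clusters, the difference was 0.460 percentage points over all cells, 0.120 in multiciliated and 0.399 in basal cells, the opposite sign from the values above, and in basal cells leaving out WT2 gave 0.0699.

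For single members, UMIs were summed per mouse and cell type, scaled by TMM factors (which correct for the composition of a library) and tested with limma's voom over all genes with Benjamini-Hochberg adjustment. Of the 77 members tested in each type, 0 passed an adjusted p of 0.05 in multiciliated cells (0.00704% of all genes were higher and 0% lower), 0 in secretory cells (0.00735% and 0%) and 0 in basal cells (0% and 0%). limma-trend also called 0 members. At an unadjusted p under 0.05 there were 3 members in multiciliated cells (background 4.32%), 9 in secretory cells (background 1.90%) and 4 in basal cells (background 2.29%). The median log2 fold change of the members, mutant against WT, was -0.16 in multiciliated cells with 67 of 77 below 0, 0.03 in secretory cells with 59 of 77 above 0, and -0.12 in basal cells with 65 of 77 below 0, where the median of all genes was 0.01, -0.00 and -0.01. The secretory median changed sign without WT1 (-0.03) and when scaled to the summed ribosomal protein UMIs (-0.03), and was 0.01 without MT1301 and 0.08 without WT2. The multiciliated median was -0.05 without MT1306 or under this scaling and -0.08 without WT2, and the basal median -0.06 without WT2 and -0.023 under this scaling. A missing call is not evidence of equal levels.

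In multiciliated cells the lowest p belonged to Rpl3, at 575, 612 and 541 CPM in the WT mice and 512, 430 and 530 CPM in the mutant mice (log2 fold change -0.26 ± 0.10 SE, limma adjusted p = 0.896). Its groups did not overlap, and MT1306 was the lowest. Rpl41 was at 3260, 3383 and 3566 CPM in WT and 3783, 4456 and 3934 CPM in mutant mice (0.23 ± 0.09). Rps29, a small zinc-binding protein of the 40S head, was at 1094, 1034 and 969 against 1169, 1259 and 1213 CPM (0.21 ± 0.09). Both were higher in every mutant mouse than in any WT mouse, without passing the adjustment. Rpl5 (-0.24) and Rpl23a (-0.23), the latter at the tunnel exit, overlapped. In all, 3 members were higher and 1 was lower without overlap, against 6.84% and 3.19% of all genes.

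In secretory cells Rps28, a small 40S protein near the mRNA exit, had the lowest p, at 1058, 883 and 943 CPM in WT and 1155, 1457 and 1164 CPM in mutant mice (0.38 ± 0.10, limma adjusted p = 1.00). Rps29 was at 1354, 1259 and 1301 against 1529, 1916 and 1530 CPM (0.34 ± 0.09). Rpl38, a 60S protein known for its part in the translation of Hox mRNAs, was at 904, 763 and 835 against 963, 1238 and 1043 CPM (0.37 ± 0.10). Rpl41 (0.26) and Rps27 (0.31) were next. Their groups did not overlap, MT1306 was the highest mouse for each of them, and none passed the adjustment. Without overlap, 10 members were higher and 0 lower, against 2.92% and 2.57% of all genes, and the 9 with an unadjusted p under 0.05 were all among the 12 members with the shortest coding sequence.

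In basal cells the lowest p belonged to Rpl5, at 1241, 1414 and 1267 CPM in WT and 1164, 1242 and 1070 CPM in mutant mice (-0.23 ± 0.09, limma adjusted p = 1.00), groups that overlapped narrowly. Rpl14 was at 1298, 1490 and 1309 against 1271, 1203 and 1202 CPM (-0.21 ± 0.08) and Rpl10a at 1217, 1313 and 1260 against 1181, 1155 and 1157 CPM (-0.17 ± 0.07), both without overlap. Rpl3 (-0.19) and Rplp0 (-0.21) overlapped. WT2 was the highest mouse for each of the 5. Without overlap, 3 members were higher and 9 lower, against 6.08% and 1.89% of all genes.

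A test of the genotype effect between cell types, with the mouse as a term, called 0 of 77 members (0% of all genes), and 0 had an unadjusted p under 0.05 (3.28% of all genes). The lowest adjusted p was 1.00. The fitted effect was higher in secretory than in multiciliated cells for 77 of 77 members, by a median of 0.18 on the log2 scale. It was higher in secretory than in basal cells for 76, by a median of 0.15. Over all genes the median was 0.006 for multiciliated minus secretory and 0.002 for secretory minus basal. Members of the same mice are not independent, so these counts are not evidence of a difference. Clusters were joined within each type, and their proportions per mouse were not held equal.

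No call was made in the other lists either: of the translation and TOP genes, ribosome biogenesis genes, ribosome regulators, targets of Trp53 and mitochondrial ribosomal proteins, 0 genes were called in any of the 3 types. In multiciliated cells 38 of 45 ribosome biogenesis genes (median -0.14), 16 of 17 translation and TOP genes (-0.18) and 61 of 78 mitochondrial ribosomal proteins (-0.07) were below 0. In basal cells these were 42 of 45 (-0.13), 15 of 17 (-0.12) and 57 of 78 (-0.04). In secretory cells they were 31 of 45 (-0.04), 10 of 17 (-0.004) and 56 of 78 (-0.03), whereas 59 of 77 members were above 0 there. Of all genes, 51.5% were above 0 in multiciliated, 48.4% in secretory and 48.0% in basal cells.

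The 12 members with the shortest coding sequence, Rps27l excepted, varied together from library to library in multiciliated, secretory and basal cells. They run from Rpl41 (75 nucleotides) through Rpl39, Rps29, Rps28, Rpl38, Rps21, Rps27l, Rps27, Rpl37a, Rpl37 and Rpl36 to Rpl36a (318 nucleotides), and the median of the 77 members is 453. Summed over all cells they made up 14.3%, 12.3% and 13.3% of the ribosomal protein UMIs in WT1, WT2 and WT3 and 14.1%, 17.4% and 15.6% in MT1301, MT1306 and MT1383. MT1306 was the highest and WT2 the lowest, and WT1 was above MT1301, so the genotypes overlapped over all cells. The pattern was found after the data were seen.

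MT1306 was also the highest and WT2 the lowest within each cell type. In multiciliated cells the sums were 17.2%, 14.6% and 16.9% in the WT mice and 17.3%, 22.2% and 18.3% in the mutant mice. There the genotypes did not overlap, though WT1 (17.15%) and MT1301 (17.26%) lay close. In secretory cells the sums were 15.5%, 12.96% and 14.2% against 14.8%, 18.1% and 16.1%. In basal cells they were 13.6%, 11.2% and 12.5% against 13.2%, 16.0% and 14.2%. WT1 was above MT1301 in both of these types. MT1306 was highest in 13 of the 13 clusters with at least 5 mice, and WT2 lowest in 11 of the 11 in which it had enough cells. The ratio of MT1306 to WT2 was between 1.33 and 1.52 in these 11. Across the 77 members, which are not independent replicates, log coding length was correlated with a mouse's deviation from the mean of its cell type. Over the 3 types r was -0.63 to -0.68 in MT1306 and 0.66 to 0.68 in WT2. It was 0.53 to 0.71 in WT3 and -0.51 to -0.38 in MT1383. In WT1 it was -0.35 to 0.07, and in MT1301 0.10 to 0.31.

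**Figure D5:**
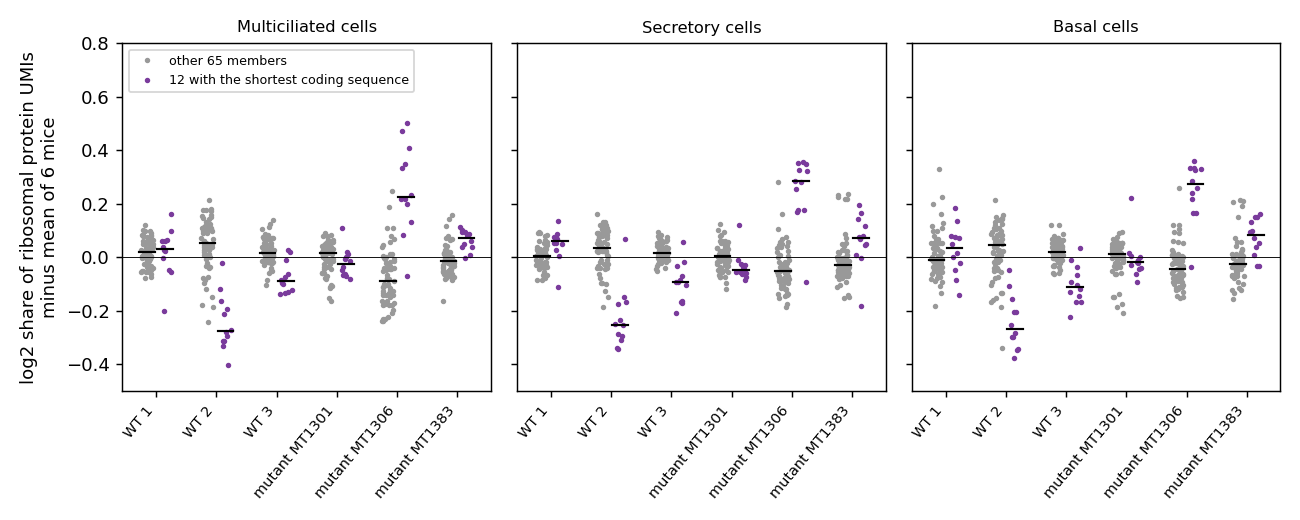
Deviation of each member's log2 share of the ribosomal protein UMIs from its mean over the 6 mice (vertical axis), per mouse (horizontal axis) in multiciliated, secretory and basal cells; the 12 members with the shortest coding sequence are purple, the other 65 grey, and lines are medians. The medians of the short members are lowest in WT2 and highest in MT1306 in all panels, at -0.25 to -0.28 and 0.22 to 0.28.

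Short genes outside the ribosome were compared in CPM, type by type. In secretory cells the median deviation in CPM of 10 members with a coding sequence under 300 nucleotides was 0.34 in MT1306 and -0.25 in WT2, whereas that of 174 other genes of this length was -0.01 and 0.00. In basal cells the values were 0.28 and -0.18 for the members and -0.01 and -0.08 for 173 other genes, which were also lowest in WT2. In multiciliated cells the short members were at 0.04 and -0.08, and 193 other genes at -0.02 and -0.004. The short members were highest there in MT1383 (0.11) and lowest in WT3 (-0.18), so the order of the other types was not kept. The 27 members of 300 to 450 nucleotides were at -0.27 in MT1306 and 0.21 in WT2. Rps27l departed from the other short members, with 665, 800 and 747 CPM in WT and 850, 692 and 697 CPM in mutant mice over all cells, where Rps27 was at 1634, 1296 and 1391 against 1500, 1909 and 1491 CPM. The 5 members with the lowest p in secretory cells (Rps28, Rps29, Rpl38, Rpl41 and Rps27) are all among these 12. What sets their level in a library was not tested, and the labels name no batch.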

How the data were processed

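The authors made the libraries with the 10x Genomics 3′ v2 chemistry; their processing notes list Cell Ranger 7.1.0 and mm10, while the methods name another Cell Ranger version. They removed cells by gene number and mitochondrial share, clustered the rest in Seurat and named the clusters by hand. The authors deposited UMI counts of single cells, neither scaled nor normalized, in a table with a malformed column separator, and the cluster name of each cell; 0 per-sample columns were left unused. No doublet caller was run here. Between libraries 67 cell barcodes were shared.

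Members and lists were chosen with earlier results of these data known. UMIs were summed per mouse and cluster; shares are percentages of all UMIs, and a mouse was used in a cluster with at least 20 cells. Because of the separator the table was not recorded as counts, so the planned count test gave way to its written fallback, limma 3.58.1 (voom, prior count 0.5) in R 4.3.3, with TMM factors trimmed at 0.3 and 0.05. The filter on low genes asked for a total of 15 and, in 3 or more mice, the CPM that a count of 10 gives at median library size. The threshold was a Benjamini-Hochberg p of 0.05 over all genes. The test was tried on simulated data. Shares were compared by two-sided exact permutation of the mice. Clusters, and the 5% limit on the chromosome 4 members, were set from these cells, so differences between clusters carry no test.

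The remaining steps ran in Python 3.11.15 (scipy 1.17.1, numpy 2.4.6, matplotlib 3.10.9, pandas 2.3.3). Positions and coding lengths are from GENCODE M21 on GRCm38, and start windows from RefSeq on GRCm38.p6. Named members were the 5 highest and 5 lowest in mean CPM, the 5 with the largest ratio of make-up between clusters, the 5 with the lowest p per cell type, and a fixed set that includes paralog pairs; Rplp2, Rpl10 and the chromosome 4 and short members were described in detail after their values were seen. Some genes are not reported here. Alternatives were upper-quartile scaling, other filters, each mouse left out, the largest cluster of a type, equal cluster proportions, scaling to the ribosomal protein sum, other denominators of the share, the authors' stated cell filters and, added later, limma-trend and leaving out cells under the chromosome 4 limit. Mice are separate animals; the numbers of the mutant animals appear in no sample title, so these libraries were used as unnumbered replicates of their genotype.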

Additional observations from a re-analysis of the deposited data

How the results depend on the processing

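No member was called under any of the alternatives run (leave-one-out counts 0 to 0). The 15 named log2 fold changes, those with the lowest p in each cell type, kept their direction in all 215 recomputed values. Because they were picked by p from the same fits, a kept direction was likely beforehand. The count therefore cannot show how stable the members are as a set. With equal cluster proportions the difference in share changed sign over all cells (0.460 percentage points), in multiciliated (0.120) and in basal cells (0.399). Leaving out single mice, it ran from -1.08 to -0.403 over all cells, from -0.746 to -0.0061 in multiciliated, 0.151 to 0.770 in secretory and -0.871 to 0.0699 in basal cells, where leaving out WT2 gave the sign change. In Multiciliated3 alone the median log2 fold change of the members was -0.10, and in Secretory1 alone 0.06. At an unadjusted limma p under 0.05 there were 12 of 77 members in Multiciliated3, 10 in Secretory1 and 9 in Basal1. Over all genes these were 589 of 13096, 304 of 13174 and 598 of 12691. In basal cells the median log2 fold change of the members was -0.023 when scaled to the summed ribosomal protein UMIs and -0.35 in Basal1 alone. Basal1 is also where WT2 had its highest share. It was the only basal cluster in which the mutant mean share was below the WT mean. Leaving out a mouse gave medians of -0.24 to -0.05 in multiciliated, -0.03 to 0.08 in secretory (below 0 without WT1, and -0.03 when scaled to the summed ribosomal protein UMIs) and -0.16 to -0.06 in basal cells. The cause of these shifts was not tested. The planned edgeR and DESeq2 fits were not run. No paired analysis was possible because the mutant animal numbers match none of the WT numbers. With 3 mice against 3 an exact permutation p cannot go below 0.1.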

Other observations

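Over the cells of a cluster, which share libraries, r between a cell's ribosomal protein share and its mitochondrial share was between -0.629 (Basal5) and 0.0439 (Multiciliated1), and r with its log UMIs between -0.347 (Basal4) and 0.308 (Basal8).

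The spread between cells of a chromosome's summed share of the ribosomal protein UMIs, divided by the spread that counting alone gives, was high for chromosome 4 in Basal6 (29.2), Basal1 (20.95), Multiciliated2 (19.0) and Basal3 (15.6), where the median of the other chromosomes was 3.34, 3.35, 4.39 and 2.95. It was not high in Basal2 (3.24) or Secretory1 (2.79). The largest value of any other chromosome was that of the chromosome 7 members in Basal8 (17.1, against 10.6 for chromosome 4 there).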
